A study of Mus musculus with 25 samples.

Results

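MicroRNA levels were compared between 4 mammary tumours of multiparous mice and 9 of nulliparous mice, all with a conditional deletion of Trp53. These 13 tumours are those among the 25 arrays of the series whose label gives the genotype MMTV-Met;Trp53fl/+ (MetTrp53 below) or Trp53fl/+ (Trp53 below) together with the parity of the mouse. A nulliparous female has borne no litter, and a multiparous female has borne several. The microRNAs were measured on one-colour Agilent arrays, 1 array a tumour. The question put to the arrays is whether the parity of the host goes with a different microRNA profile once the genotype is allowed for.

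All the mice were females of the FVB strain. The multiparous group held 2 MetTrp53 and 2 Trp53 tumours, and the nulliparous group held 6 MetTrp53 and 3 Trp53 tumours. By these labels every mouse carried a floxed Trp53 allele beside a wild-type one. The labels do not say whether a tumour kept the wild-type allele. The MetTrp53 tumours also carried a Met receptor transgene under the mouse mammary tumour virus promoter, which is active in mammary epithelium. The driver of the Cre recombinase, the age of the mice and the number of litters are not given in the sources used here. The labels do not state that every tumour came from a different mouse, so a p-value here covers only the scatter among these 13 arrays, part of which may be technical.

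Parity and pathology were unevenly spread over the genotypes. Both multiparous MetTrp53 tumours were adenocarcinomas, 1 of them poorly differentiated, whereas 1 multiparous Trp53 tumour was intermediate and the other spindloid, a spindle-cell form. Of the 8 nulliparous tumours with a stated pathology, 4 were spindloid, 2 intermediate and 2 poorly differentiated adenocarcinomas. The pathologies overlapped between the parity groups only in part: MetTrp53 tumours of both groups included a poorly differentiated adenocarcinoma, and Trp53 tumours of both included an intermediate and a spindloid one. Both multiparous Trp53 tumours were on the same slide and scan day, which held no nulliparous Trp53 tumour. Within Trp53, parity therefore cannot be told apart from slide or scan day. The series also holds 1 pool of normal mammary gland from multiparous and 1 from nulliparous females, both labelled wild-type. Their values are set beside those of the tumours as a check of direction. No test can be made on them.

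Pregnancy drives the mammary epithelium through rounds of proliferation, secretory differentiation and involution, and the parous gland keeps changes in its epithelium and stroma after the milk-producing cells have gone. MicroRNAs are short RNAs that repress messenger RNAs through pairing of their seed, the bases 2 to 8 from the 5′ end. Several mark one cell type: the miR-200 family marks epithelial cells and restrains the change to a mesenchymal state, miR-142 and miR-223 mark leukocytes, miR-126 marks endothelium, and miR-451 accumulates in red blood cells. In bulk tissue, fewer cells of a type and less RNA per cell cannot be told apart.

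Mature sequences are from RefSeq (GRCm38.p6), read 5′ to 3′ with the seed in capitals. RefSeq gave a sequence for 16 of the 20 microRNAs that stood first in the comparison and for 204 of the 264 tested. The first set opens with miR-451, miR-24-3p and miR-361-5p, which had the smallest p-values for parity among those with a sequence. The others shown, let-7i-5p, miR-29a-3p and miR-103-3p, come from the same 20 and belong to families with a common seed; miR-29b-3p and miR-107-3p are added as relatives of the last 2.
miR-451: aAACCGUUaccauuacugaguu
miR-24-3p: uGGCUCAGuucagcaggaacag
miR-361-5p: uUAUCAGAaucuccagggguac
let-7i-5p: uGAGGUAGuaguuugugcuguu
miR-29a-3p: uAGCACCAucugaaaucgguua
miR-29b-3p: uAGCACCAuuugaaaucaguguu
miR-103-3p: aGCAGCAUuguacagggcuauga
miR-107-3p: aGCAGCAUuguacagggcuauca

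The second set is shown because its values for parity took opposite signs in the 2 genotypes. The first 3 share one seed and the next 2 another; both seeds belong to the miR-200 family.
miR-200b-3p: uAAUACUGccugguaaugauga
miR-200c-3p: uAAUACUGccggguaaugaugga
miR-429-3p: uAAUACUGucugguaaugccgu
miR-200a-3p: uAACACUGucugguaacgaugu
miR-141-3p: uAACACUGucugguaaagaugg
miR-183-5p: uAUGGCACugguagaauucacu
miR-155-5p: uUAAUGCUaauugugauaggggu

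Levels below are log2 intensities scaled to the 75th percentile of each array, with a floor at 3.61, and a difference is the multiparous minus the nulliparous level on that log2 scale with genotype as a covariate. A microRNA is written as detected on an array where it was above the local background. Detected microRNAs numbered 203 to 242 on the multiparous arrays (median 207.5) and 200 to 277 on the nulliparous arrays (median 242), and 150 were detected on all 13. The 75th percentile itself was 364 to 598 intensity units in the multiparous and 359 to 915 in the nulliparous tumours. The part of this gap in the results was not tested. Correlations between arrays were as high across the groups (0.810 to 0.966) as within the multiparous (0.815 to 0.962) or nulliparous group (0.804 to 0.981).

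No microRNA passed the test for parity. Of 264 microRNAs tested with limma, 0 (0%) had a Benjamini-Hochberg adjusted p under 0.05, and the smallest adjusted p was 0.487. At an unadjusted p under 0.05 there were 14 (5.3%), of which 10 (3.79% of those tested) were higher and 4 (1.52%) lower in multiparous tumours. In 0 of the 264 (0%) did the 4 multiparous tumours lie all above or all below the 9 nulliparous ones. The values were higher in multiparous tumours for 144 microRNAs and lower for 120, with a median difference of 0.06.

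The precision of the comparison limits what could be seen. The median standard error of a difference was 0.26, and the median 95% interval was 1.12 wide. For 171 microRNAs (64.8%) the interval lay within a 2-fold change in either direction, whereas for 20 it reached past 4-fold. Only miR-451, miR-3107-5p and miR-132-3p had values at least 2-fold apart, and 29 were at least 1.5-fold apart. A microRNA that missed the threshold is not thereby shown to be alike in the 2 groups.

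**Figure D1:**
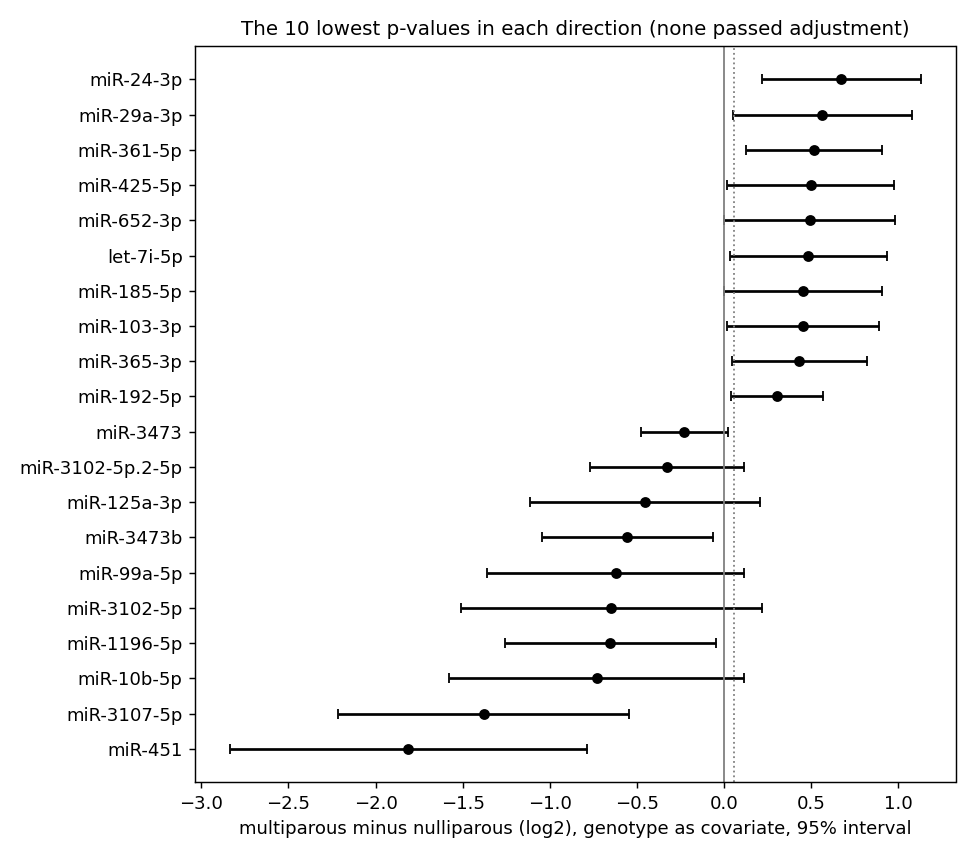
Difference between multiparous and nulliparous tumours (log2, horizontal axis) for the 10 microRNAs with the smallest p in each direction; points are the limma estimates with genotype as a covariate, bars their 95% intervals, the solid line 0 and the dotted line the median of the 264 microRNAs tested (0.06). miR-451 (-1.81) and miR-3107-5p (-1.38) stand furthest to the left, while those on the right lie between 0.31 and 0.68; none passed the adjusted threshold.

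The lowest values relative to nulliparous tumours were those of 2 microRNAs abundant in red blood cells. miR-451, which is matured by Argonaute 2 without Dicer and accumulates during erythroid differentiation, stood at 8.64 and 8.12 in the multiparous MetTrp53 tumours and at 7.42 and 9.69 in the multiparous Trp53 tumours. In the nulliparous MetTrp53 tumours it stood at 10.13, 8.64, 11.01, 10.58, 10.46 and 10.39, and in the nulliparous Trp53 tumours at 10.65, 9.64 and 10.79. All 4 multiparous tumours were below the nulliparous median, 2 of them were below every nulliparous tumour, and 7 of 9 nulliparous tumours were above every multiparous one. The difference was -1.81 (SE 0.47, 95% interval -2.84 to -0.79), a 3.51-fold lower level, with an unadjusted p of 0.00231 and an adjusted p of 0.487. It was -1.82 (SE 0.66) within MetTrp53 and -1.80 (SE 0.74) within Trp53.

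miR-3107-5p, whose RefSeq gene is also listed as mir-486b and lies with the erythroid and muscle microRNA gene Mir486, gave the second lowest value. Its levels were 4.15 and 3.61 in the multiparous MetTrp53 tumours and 3.63 and 4.80 in the multiparous Trp53 tumours, where it was detected in 2 of 4. The nulliparous MetTrp53 tumours had 5.02, 3.90, 6.16, 5.66, 5.28 and 4.95, and the nulliparous Trp53 tumours 6.23, 5.06 and 5.86, with detection in 8 of 9. Here 8 of the 9 nulliparous tumours lay above every multiparous tumour. The difference was -1.38 (SE 0.38, 95% interval -2.21 to -0.54, adjusted p 0.487). It was -0.30 with a normexp background correction in place of the software's own, and -0.79 with a floor 2 times higher, so its size changed with how low intensities were handled.

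Both microRNAs kept their sign within each slide and scan day that held both groups. On the 3 such slides the multiparous minus nulliparous value was -2.01, -1.59 and -2.24 for miR-451 and -2.08, -1.27 and -1.70 for miR-3107-5p. The 3 scan days gave -2.01, -1.68 and -2.05 for miR-451, and -2.08, -1.35 and -1.30 for miR-3107-5p. Each of these rests on 1 or 2 multiparous arrays, has no genotype term and has no test. Slide 1 and scan day 1 hold the same tumours of the comparison. On slide 1 a multiparous MetTrp53 tumour was set against a nulliparous Trp53 tumour. On slide 4 multiparous Trp53 tumours were set against nulliparous MetTrp53 tumours, so genotype enters these values. Of the 20 microRNAs named, 11 kept their sign in this way, and 9 turned on at least 1 slide, such as miR-3473b (0.42 on slide 1), miR-103-3p (-0.27 on slide 3) and miR-99a-5p (0.25 on slide 4). The 20 were chosen by the parity comparison of these same arrays, so this count is a description only. The other erythroid microRNAs on the array were near or below background: miR-144-3p was detected in 0 of 4 multiparous and 1 of 9 nulliparous tumours, and miR-486-3p in none of the 13. The endothelial miR-126-3p differed by -0.23 (SE 0.33), with levels of 8.40 to 9.76 in multiparous and 8.46 to 10.30 in nulliparous tumours. How far residual blood or vessels enter the 2 erythroid values was not tested.

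Multiparous tumours outside the comparison had levels that ran across both groups. The 6 multiparous tumours labelled MMTV-Met, a genotype without a floxed Trp53 allele, had miR-451 levels from 7.94 to 10.34 with a median of 9.77. Their miR-3107-5p levels ran from 3.61 to 5.43 with a median of 4.69.

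**Figure D2:**
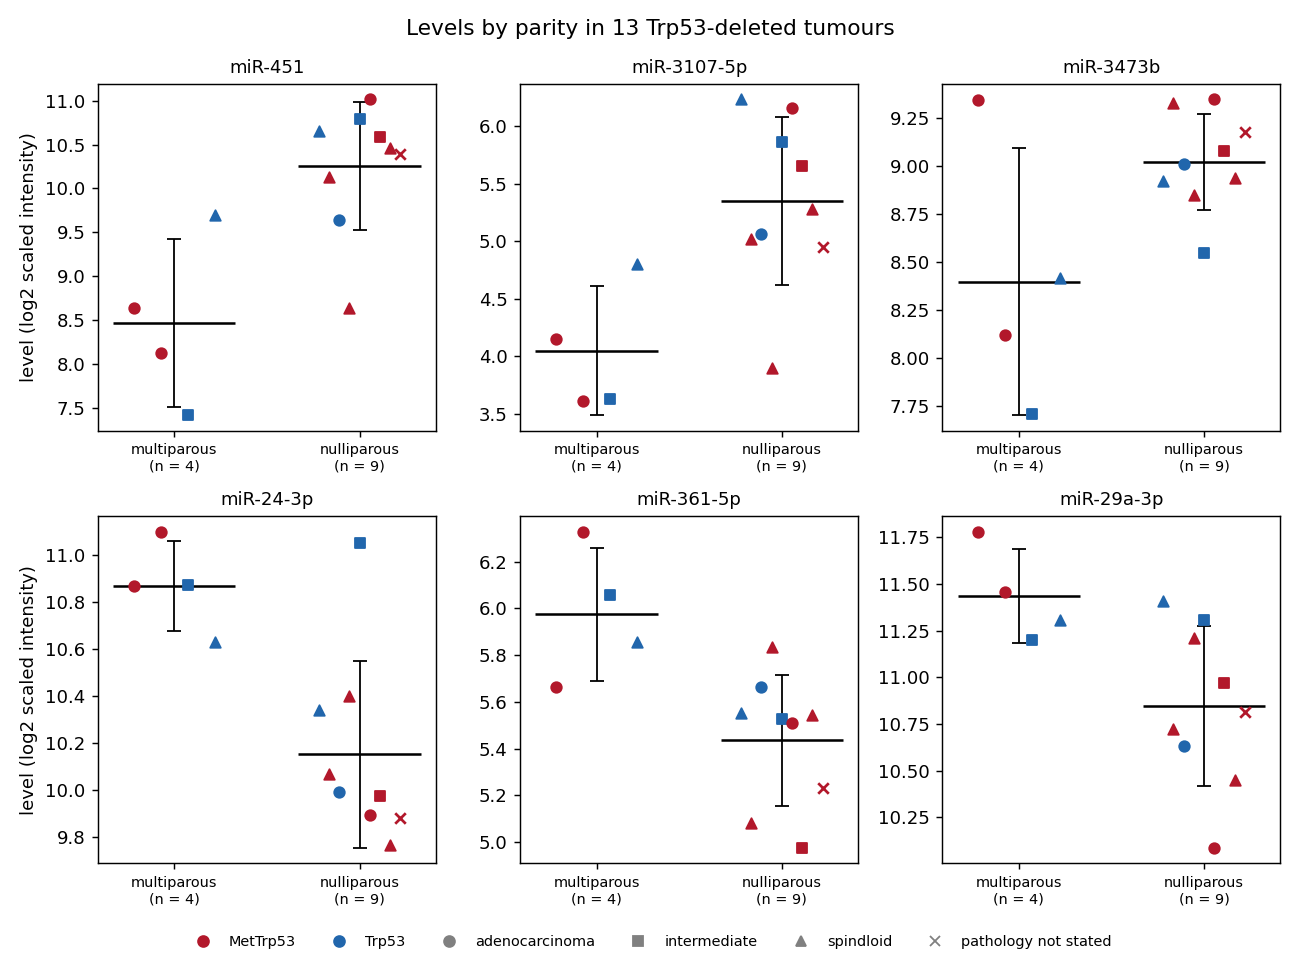
Levels (log2 scaled intensity, vertical axis) of 6 microRNAs in 4 multiparous and 9 nulliparous tumours; each point is a tumour, colour gives the genotype, marker shape the pathology, the horizontal line the group mean and the bar 1 SD. miR-451, miR-3107-5p and miR-3473b have lower means and miR-24-3p, miR-361-5p and miR-29a-3p higher means in the multiparous group, and in every panel the groups overlap.

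Among the microRNAs with higher values in multiparous tumours, miR-24-3p came first. It is made from the gene clusters that also hold miR-23 and miR-27, and it is abundant in most tissues. Its levels were 10.87 and 11.10 in the multiparous MetTrp53 and 10.87 and 10.63 in the multiparous Trp53 tumours. They were 10.07, 10.40, 9.90, 9.98, 9.76 and 9.88 in the nulliparous MetTrp53 and 10.34, 9.99 and 11.05 in the nulliparous Trp53 tumours. Thus 8 of 9 nulliparous tumours lay below every multiparous tumour, and the remaining one lay among them. The difference was 0.68 (SE 0.21, 95% interval 0.22 to 1.13, adjusted p 0.646), or 1.60-fold. It was 0.98 (SE 0.26) within MetTrp53 and 0.29 (SE 0.29) within Trp53.

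miR-361-5p followed with 5.66, 6.33, 6.06 and 5.86 in the 4 multiparous tumours, against a nulliparous range of 4.98 to 5.84 with a median of 5.53. All 4 multiparous tumours were above the nulliparous median, and 3 were above every nulliparous tumour. The difference was 0.52 (SE 0.18, 95% interval 0.13 to 0.91, adjusted p 0.758), and 0.34 without MetTrp53 multiparous tumour 2.

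miR-29a-3p, a repressor of collagens and other matrix genes, had levels of 11.78, 11.46, 11.20 and 11.31 in multiparous tumours and 10.09 to 11.41, median 10.82, in nulliparous tumours. All 4 multiparous tumours were above the nulliparous median, and the groups overlapped at the upper end of the nulliparous range. The difference was 0.57 (SE 0.24), made up of 0.91 within MetTrp53 and 0.14 within Trp53, and that of miR-29b-3p, which shares its seed, was 0.58 (SE 0.29). miR-103-3p, a microRNA from introns of the pantothenate kinase genes that represses Dicer, had levels of 8.49, 8.08, 8.38 and 8.28 against 7.15 to 8.43, median 7.73, and differed by 0.45 (SE 0.20). Its near-identical relative miR-107-3p differed by 0.38 (SE 0.20); the probes for the 2 may share signal.

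The other microRNAs among the 10 smallest p-values on this side had differences of similar size. let-7i-5p, of the differentiation-linked let-7 family, differed by 0.48 (SE 0.21), with 3 multiparous tumours above every nulliparous one and the other at 10.16, under the nulliparous median of 10.31. miR-365-3p, which shares a gene cluster with the brown-fat microRNA miR-193b, differed by 0.43 (SE 0.18). miR-185-5p differed by 0.46 (SE 0.21), miR-425-5p by 0.50 (SE 0.22) and miR-652-3p by 0.49 (SE 0.23). Several of these values came mainly from MetTrp53 tumours, where both multiparous tumours were adenocarcinomas: let-7i-5p differed by 0.85 within MetTrp53 and 0.03 within Trp53, miR-425-5p by 0.90 and 0.0010, and miR-185-5p by 0.68 and 0.17. miR-652-3p did not follow this, with 0.48 and 0.51, and was 0.98 with the spindloid tumours left out. For miR-365-3p, miR-185-5p and miR-652-3p all 4 multiparous tumours lay above the nulliparous median, and for let-7i-5p and miR-425-5p 3 of 4 did. miR-192-5p, which p53 induces, differed by 0.31 (SE 0.12), but most of its nulliparous values were at or next to the floor. It was detected in 3 of 4 multiparous and 3 of 9 nulliparous tumours. Detection and level did not go together: the 3 nulliparous tumours with detection had 3.61, 3.61 and 3.62. The highest nulliparous level of miR-192-5p, 3.93 in MetTrp53 tumour 2, was on an array where it was not detected. One of its 2 probes was above background on 0 of 13 arrays, and the other alone differed by 0.61; the difference was 0.18 without MetTrp53 multiparous tumour 2 and 0.65 with a floor 4 times lower. Each had an adjusted p of 0.758.

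On the lower side, the values after the 2 erythroid microRNAs were smaller or less certain. miR-3473b, a late-catalogued microRNA with no settled function, had levels of 9.34, 8.12, 7.71 and 8.42 in multiparous tumours and 8.55 to 9.35, median 9.01, in nulliparous tumours. So 3 multiparous tumours were below every nulliparous one, while the fourth was level with the highest. The difference was -0.55 (SE 0.22, adjusted p 0.758), with -0.86 without MetTrp53 multiparous tumour 1 and -0.35 without MetTrp53 multiparous tumour 2. miR-1196-5p was detected in 2 of 4 multiparous and 9 of 9 nulliparous tumours and differed by -0.65 (SE 0.28); this was -0.33 without MetTrp53 multiparous tumour 1 and -0.05 with the normexp correction. miR-10b-5p, encoded in a Hox gene cluster, differed by -0.73 (SE 0.39), and miR-99a-5p, clustered with let-7c, by -0.62 (SE 0.34); with the normexp correction they were -0.19 and -0.39. The remaining 4 named on this side, miR-3473, miR-3102-5p, miR-3102-5p.2-5p and miR-125a-3p, had differences of -0.23 to -0.65, and the signs of miR-3473, miR-3102-5p.2-5p and miR-125a-3p turned with the normexp correction. One of the 2 miR-3473 probes was above background on 0 of 13 arrays. The other, above background on all 13, differed by -0.46 alone.

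Groups of microRNAs were then described by list, each against the 144 higher and 120 lower values and the median of 0.06 among all 264. Among the 150 microRNAs detected on all 13 arrays the median was higher, at 0.18. The let-7 list, the miR-29 and miR-30 list and the tumour-associated list held only such microRNAs, so 0.18 is the closer comparison for them. It is also the closer one for the stromal and mesenchymal, oestrogen receptor and adipose lists, whose tested members were all of this kind. 0 members of any list passed the test. Members of a list are often transcribed together, so their values are not independent of one another. A member detected in only some tumours was tested because of the tumours in which it was high, so these counts are descriptions and no support for a direction of a list.

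Of 22 microRNAs linked to pregnancy, lactation and involution, 15 were tested, and 12 had higher and 3 lower values in multiparous tumours (median 0.37). miR-132-3p, which together with miR-212-3p has been tied to outgrowth of the mammary ducts, had the largest value, 1.16 (SE 0.81, 95% interval -0.61 to 2.93). That value came from few tumours: the 4 multiparous levels were 5.62, 3.75, 5.86 and 8.21, and 1 nulliparous tumour had 7.75 against a nulliparous median of 4.18. miR-212-3p differed by 0.37 (SE 0.33). miR-101a-3p, reported to regulate beta-casein in mammary cells, differed by 0.69 (SE 0.39), and miR-148a-3p, abundant in milk and mammary epithelium, by 0.47 (SE 0.89). The lower values were those of miR-10b-5p, miR-99a-5p and miR-126-3p. Of 6 microRNAs that target the oestrogen receptor, 5 were tested, with 4 higher and 1 lower (median 0.50).

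Several lists had all or nearly all of their values on the higher side. The miR-29 and miR-30 families, which accumulate with differentiation, had 8 of 8 higher (median 0.32), from 0.18 to 0.58. The let-7 family had 8 of 9 higher (median 0.30), with let-7e-5p at -0.16 (SE 0.20). Both lists had a positive median within MetTrp53 (0.65 and 0.59) and one near 0 within Trp53 (-0.03 and -0.02). The 5 tested p53-induced microRNAs were higher (median 0.31), with a median of 0.51 within MetTrp53 and 0.05 within Trp53. miR-34a-5p, the best known of them, differed by 0.45 (SE 0.30). The 6 tumour-associated microRNAs were higher too (median 0.48), with a median of 0.13 within MetTrp53 and 1.18 within Trp53. Among them were miR-21-5p at 0.35 (SE 0.26), miR-210-3p, which responds to hypoxia, at 0.62 (SE 0.59), and miR-222-3p at 0.85 (SE 0.65). Each of these values has a standard error of a size that leaves the sign of most members uncertain.

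The Dlk1-Dio3 cluster, a large imprinted group of microRNAs, had 7 of 18 microRNAs on the array tested, with 0 higher and 7 lower values (median -0.40). miR-376b-3p was detected in 0 of 4 multiparous and 4 of 9 nulliparous tumours, and miR-411-5p in 0 and 6. miR-382-5p and miR-434-3p were detected in 1 and 6 each, miR-379-5p in 2 and 8, and miR-154-5p in 2 and 6. How far entry through nulliparous tumours bears on the sign of these members was not tested. miR-127-3p, the one member detected in all 13 tumours, differed by -0.62 (SE 0.58). miR-434-3p differed by -0.40 (SE 0.33), and many of its levels were low: 3 of the 4 multiparous and 3 of the 9 nulliparous values were at or next to the floor, and the highest, 5.59, was in a nulliparous spindloid tumour. The stromal and mesenchymal list had 4 higher and 6 lower values (median -0.32), and its median was -0.50 within MetTrp53, 0.31 within Trp53 and -0.11 with pathology as a covariate. It includes miR-214-3p at -0.52 (SE 0.68) and miR-143-3p, of smooth muscle and fibroblasts, at 0.59 (SE 0.28). The cluster that holds miR-17, miR-20a and miR-92a, with its paralogs, which promote proliferation, had 3 higher and 6 lower values within a narrow span of -0.32 to 0.18.

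Markers of other cell types were described in the same way. The leukocyte list had 5 higher and 1 lower value (median 0.53), led by miR-142-3p at 0.75 (SE 0.39, 95% interval -0.11 to 1.60), with miR-223-3p at -0.04 (SE 0.41). The mean level of the 6 leukocyte microRNAs tested was 6.25 to 6.87 in multiparous and 5.49 to 6.82 in nulliparous tumours, so the groups overlapped. Of the adipose list, 3 were tested, with 2 higher and 1 lower (median 0.43), and of the neural list 2, both higher (median 0.26). The medians within MetTrp53 and Trp53 took opposite signs, 0.54 and -0.20 for the adipose and 0.69 and -0.28 for the neural list. miR-126-3p was the endothelial and miR-451 the erythroid microRNA tested. The difference of miR-126-3p was -0.58 within MetTrp53 and 0.21 within Trp53. Of 5 muscle microRNAs, 0 were detected often enough to test; miR-133b-3p was detected in 1 multiparous tumour and the others in none, and miR-1a-3p, miR-133a-3p, miR-133b-3p and miR-206-3p were each detected in 2 nulliparous tumours.

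Epithelial microRNAs had wide differences within the genotypes, and their values pointed one way in MetTrp53 and the other way in Trp53 tumours. miR-200c-3p stood at 7.10 and 9.64 in the multiparous MetTrp53 tumours and at the floor, 3.61, in both multiparous Trp53 tumours. In the nulliparous MetTrp53 tumours it stood at 3.61, 3.61, 9.62, 4.42, 4.71 and 3.77, and in the nulliparous Trp53 tumours at 4.99, 9.84 and 3.61. Its difference was 3.42 (SE 1.78) within MetTrp53 and -2.53 (SE 2.00) within Trp53, which gave 0.77 (SE 1.54) over both genotypes. The difference between the genotypes was 5.95 (SE 2.68, 95% interval 0.05 to 11.85), with an unadjusted p of 0.048 and an adjusted p of 0.485. It was 13.63 with slide as a block and 3.72 with normexp, so its size changed with the processing. The Trp53 part of it rests on arrays whose slides differ between the parities.

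The other members of the family had the same layout. The difference was 3.21 within MetTrp53 and -2.25 within Trp53 for miR-200b-3p, 3.22 and -2.05 for miR-429-3p, 2.16 and -1.42 for miR-200a-3p, and 2.32 and -1.27 for miR-141-3p. The 5 other epithelial microRNAs tested did likewise, with medians of 2.26 and -1.68. miR-183-5p, of a cluster with miR-96 and miR-182 found in epithelia and sensory cells, had levels of 6.15 and 7.81 in multiparous MetTrp53 tumours against 3.61 to 6.65 in nulliparous ones. In Trp53 tumours it had 3.68 and 3.61 against 4.55, 6.73 and 3.98. The difference between the genotypes was 3.84 for miR-183-5p (SE 1.26, unadjusted p 0.0111, adjusted p 0.451), 7.59 with slide as a block and 2.09 with normexp.

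These levels ran with the pathology. The mean level of the 5 miR-200 family members was 5.95 and 9.12 in the 2 multiparous adenocarcinomas and 8.40 and 8.48 in the 2 nulliparous adenocarcinomas. In the other 9 tumours it was at most 4.45. The 4 highest tumours were therefore the 4 labelled adenocarcinoma, whatever the parity of the host.

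**Figure D3:**
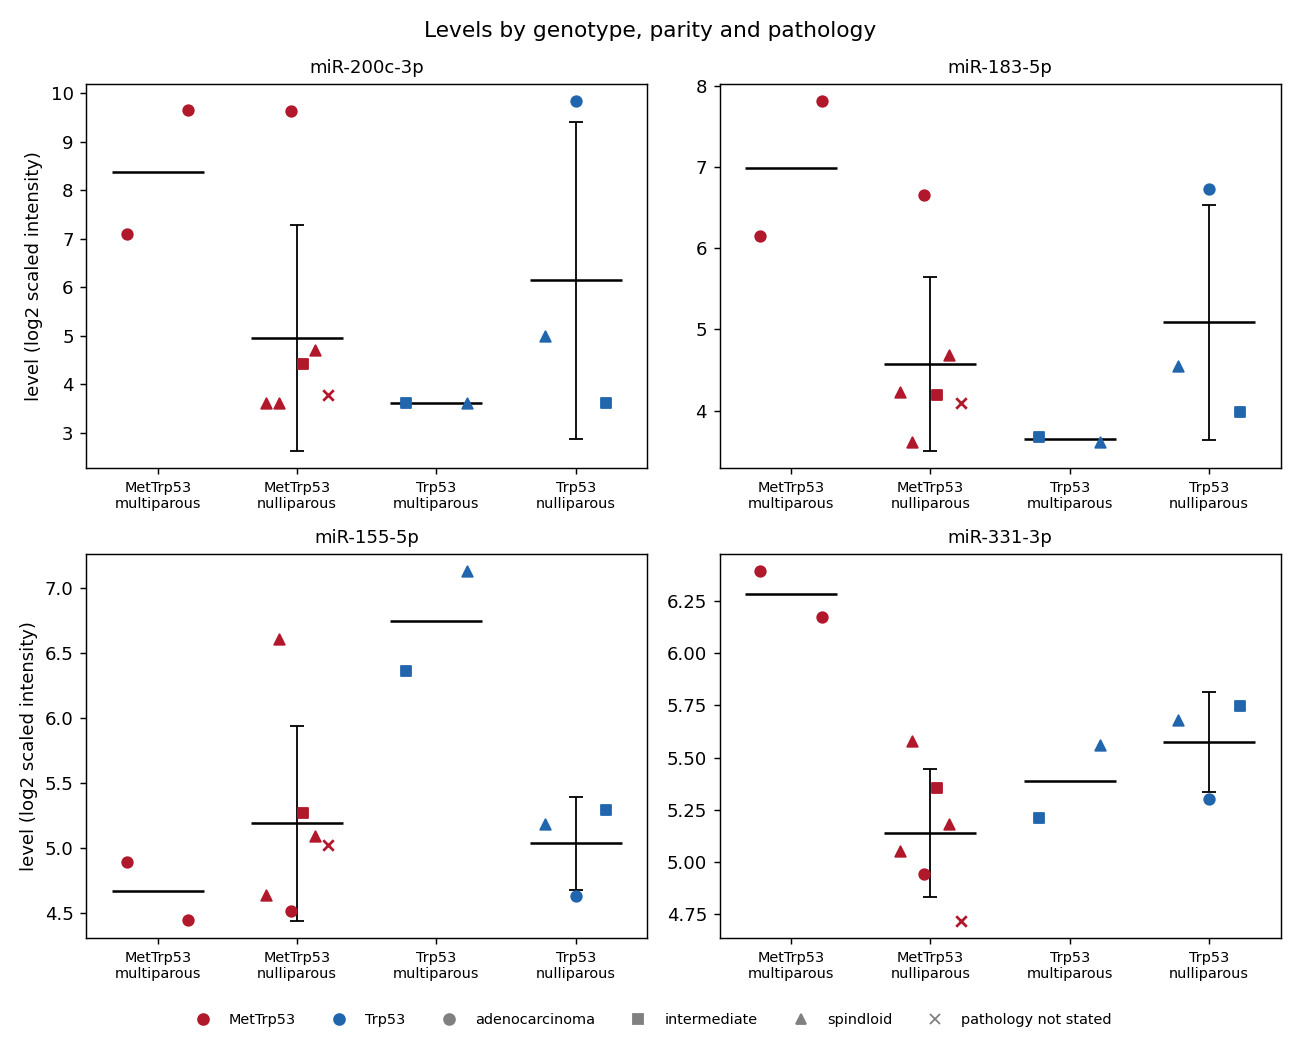
Levels (log2 scaled intensity, vertical axis) of 4 microRNAs in the 4 groups of genotype and parity; each point is a tumour, marker shape gives the pathology, the line the group mean and the bar 1 SD where a group has more than 2 tumours. For miR-200c-3p and miR-183-5p the highest points are adenocarcinomas in both genotypes, while miR-155-5p is highest in a multiparous Trp53 tumour (7.13).

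miR-155-5p, a microRNA of activated leukocytes that is also raised in many tumours, had the opposite layout. It stood at 4.90 and 4.45 in multiparous MetTrp53 tumours against 4.52 to 6.61 in nulliparous ones. In Trp53 tumours it stood at 6.36 and 7.13 against 5.18, 4.63 and 5.30, so the multiparous tumours were both higher there. The difference was -0.52 (SE 0.47) within MetTrp53 and 1.71 (SE 0.53) within Trp53, and the genotypes differed by -2.23 (SE 0.71, unadjusted p 0.00950, adjusted p 0.451), by -4.17 with slide as a block and by -0.79 with normexp. miR-331-3p, named because it had the smallest p of this test and so chosen after its values were seen, had 6.39 and 6.17 in the multiparous MetTrp53 tumours against 4.72 to 5.58 in the 6 nulliparous ones. Its difference was 1.14 (SE 0.23, adjusted p 0.113) within MetTrp53 and -0.19 (SE 0.26) within Trp53, and the genotypes differed by 1.33 (SE 0.34, adjusted p 0.451), which was 0.65 with slide as a block.

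Over all microRNAs, limma called 0 of 264 for a difference in the parity effect between the genotypes. At an unadjusted p under 0.05 there were 25 (9.47%) for that difference, 36 (13.6%) for parity within MetTrp53 and 12 (4.55%) within Trp53. Each of the within-genotype comparisons also called 0, with a smallest adjusted p of 0.113 and 0.777. The sign of the difference was the same in both genotypes for 138 microRNAs (52.3%). The median standard error of the genotype difference was 0.52, so only large differences could have been seen with 2 multiparous tumours in each genotype. No slide or scan day held Trp53 tumours of both parities, so these within-Trp53 values and genotype differences also include any slide difference.

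**Figure D4:**
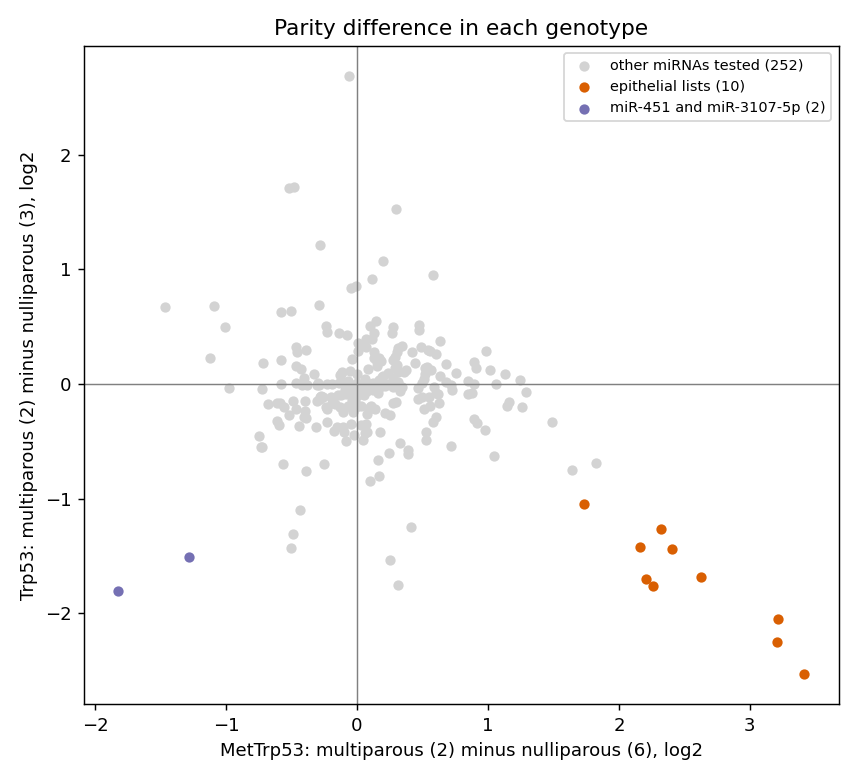
Parity difference within MetTrp53 (log2, horizontal axis, 2 multiparous against 6 nulliparous tumours) and within Trp53 (log2, vertical axis, 2 against 3) for the 264 microRNAs tested, 1 point each. The 10 epithelial microRNAs lie to the right and below 0, as miR-200c-3p at 3.42 and -2.53, whereas miR-451 (-1.82 and -1.80) and miR-3107-5p (-1.28 and -1.51) are negative on both axes.

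With spindloid pathology as a further covariate, over the 12 tumours with a stated pathology, limma called 0 microRNAs for parity. The smallest adjusted p was 0.874, and 4 microRNAs (1.52%) had an unadjusted p under 0.05. The differences of the epithelial microRNAs were smaller, with a median of -0.02 for the miR-200 family in place of 0.77 and of 0.19 for the other epithelial list in place of 0.50. That of miR-200c-3p was -0.13 (SE 1.43). Those of the microRNAs with the smallest p-values stayed near their size: miR-451 was -1.78 (SE 0.53), miR-3107-5p -1.44 (SE 0.43), miR-24-3p 0.62 (SE 0.23) and miR-361-5p 0.50 (SE 0.20). With a single spindloid tumour among the 4 multiparous ones, this fit separates parity from pathology only in part.

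The normal pools did not have the layout of the tumours. The multiparous pool was on slide 1 and scan day 1, with 231 microRNAs detected. The nulliparous pool was on slide 3 and scan day 2, with 283 detected. Parity of the pools therefore cannot be told apart from slide or scan day. Of the 264 microRNAs, 18 (6.82%) were at least 2-fold apart between the pools, 11 higher and 7 lower in the multiparous pool. Of the 204 detected in both pools, 85 (41.7%) had the sign of the tumour difference, and the correlation of the 2 differences was -0.067 over those 204 microRNAs, which are measured on the same arrays. Of the 20 microRNAs named for their p-values, 8 had the same sign in the pools, and 8 to 11 under the 4 alternatives for scaling, background and the authors' deposited table. Many pool differences were close to 0, and 9 of the 20 turned sign under at least 1 of these alternatives.

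miR-451 was higher in the multiparous pool, at 11.17 against 10.33, while it was lower in multiparous tumours. miR-3107-5p stood at 7.26 and 7.03 in the multiparous and nulliparous pools, both above every tumour in the comparison. miR-24-3p stood at 9.71 in both pools, and miR-361-5p at 5.54 and 5.58, so the pools were close to level for both. The small pool difference of miR-361-5p (-0.04) was 0.06 to 0.23 under the 4 alternatives, and that of miR-24-3p lay between -0.03 and 0.09. Some leukocyte and fat microRNAs were further apart: miR-142-3p stood at 5.12 in the multiparous and 7.45 in the nulliparous pool (-2.32), miR-223-3p differed by -1.48, and miR-193b-3p and miR-378-3p, both active in adipocytes, by 1.61 and 1.11. The median pool difference of the leukocyte list was -0.79, but its member miR-146b-5p was higher in the multiparous pool (7.04 against 6.46). miR-21-5p, a microRNA raised in many tumours, differed by -1.50 between the pools, miR-199a-5p, of mesenchymal cells, by -1.37, and miR-1224-5p by 1.37. miR-142-3p had the opposite sign in tumours (0.75), and miR-378-3p differed there by -0.04. How far the make-up of cells in the pools enters these values was not tested.

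**Figure D5:**
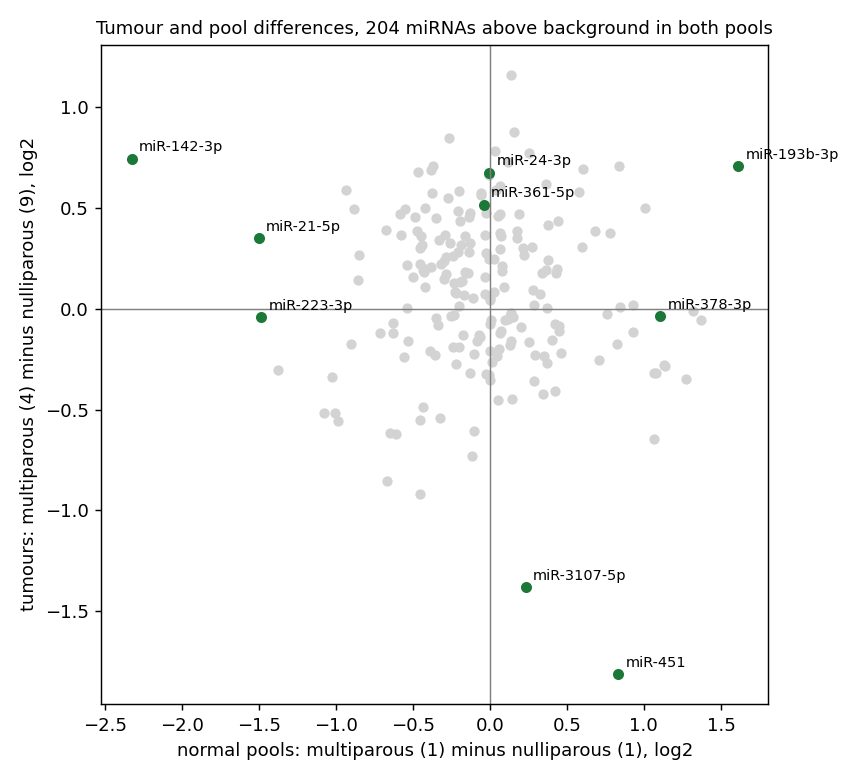
Difference between the multiparous and the nulliparous normal pool (log2, horizontal axis, 1 array each) and between multiparous and nulliparous tumours (log2, vertical axis, 4 against 9) for the 204 microRNAs detected in both pools, 1 point each. The points follow no common line (correlation -0.067): miR-451 is at 0.84 and -1.81, and miR-142-3p at -2.32 and 0.75.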

How the data were processed

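Total RNA from snap-frozen tissue was labelled with Cy3, per the labels' protocols. Per the file headers, the deposited spot intensity values come from version 10.7.3.1 of Agilent Feature Extraction, which had subtracted background without any scaling across arrays. A second deposited table holds log2 values. The submitters' processing notes list RMA with no role given. The centring of the table is unknown (column medians 1.72 to 1.91), and it served as an alternative.

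Spots marked as outliers were left out, spots averaged to probes and probes to microRNAs (2847 probes, 1122 mouse microRNAs). Each array was divided by its 75th percentile over the 220 probes above background on all 25 arrays, floored at 0.0212 of it and brought to log2, with the median percentile added. A probe was above background where over 50% of its spots were well above it. The 264 microRNAs detected on at least 4 of the 13 arrays entered lmFit and eBayes of limma (version 3.58.1; R 4.3.3) with genotype as a covariate, and a microRNA was called where its p adjusted by Benjamini-Hochberg was under 0.05; the test was tried on simulated data. Named are the 10 microRNAs with the smallest p in each direction, since none was called, and members of 17 lists. The members and lists were chosen with earlier results of these data known. The normexp alternative (offset 50) used the median spot and background signals, because the files give no mean signal. The median-centred values and the looser detection rule were chosen after seeing the data. 4 further tumours have no stated parity and were left out.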

Additional observations from a re-analysis of the deposited data

Results flagged for a closer look

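Among 44 groups of values examined, 2 held a tumour set apart from the rest of its group; chance sets about 1 in 20 such groups apart. The nulliparous Trp53 tumour 3 had a miR-24-3p level of 11.05, while the next highest nulliparous tumour had 10.40. Without it the parity difference of miR-24-3p was 0.82 in place of 0.68. The nulliparous MetTrp53 tumour 2 had a miR-192-5p level of 3.93 against 3.62 in the next highest, in a group whose median lay at the floor of 3.61. miR-192-5p was not detected on the array of that tumour. Most values of this group were tied at the floor, so the rate of 1 in 20 does not apply to it.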

How the results depend on the processing

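No microRNA was called by limma under any of 31 alternatives for parity, 19 for the difference between genotypes or 17 for parity with pathology; these covered scaling, background, floor, detection filter, probe choice, slide or scan day as a block, the authors' table, other sets of arrays and each tumour left out in turn. The smallest adjusted p for parity was lowest without MetTrp53 nulliparous tumour 2 (0.066), and the number at an unadjusted p under 0.05 ran from 6 to 38, the latter with the percentile over all mouse probes. That scaling moved the median difference of all microRNAs from 0.06 to 0.16, and normexp moved it to 0.18, so small positive values depend on the scaling. The difference of miR-451 lay between -2.57 and -1.61 over its alternatives, and between -2.19 and -1.44 with single tumours left out. Among the parity differences of the 20 named microRNAs and the genotype differences of 7, signs turned in 3 cases, all with normexp. These were miR-3473 (0.036), miR-3102-5p.2-5p (0.098) and miR-125a-3p (0.041). Each had at least 1 probe above background on only some of the arrays or on none, and the cause was not tested. Pool differences of 9 of the 20 turned sign under at least 1 of 4 alternatives. Signal near background limits miR-3107-5p, miR-192-5p, miR-1196-5p and the Dlk1-Dio3 cluster. Replicate numbers follow the order of deposit and pair no samples.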
